A study of Rattus norvegicus with 40 samples.

Results

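The comparison described here sets microglia from the medulla of adult rats whose dams lived through intermittent hypoxia in late gestation against those of rats whose dams lived through normoxia, over both sexes. Of the 40 libraries of the series, 19 entered it, 9 from hypoxia and 10 from normoxia offspring, chosen by the labels of region and exposure. All animals were Sprague Dawley rats of 8 weeks, from dams exposed on gestational days 10 to 21 for 8 hours per day at 15 cycles per hour. Normoxia males (n = 5) and normoxia females (n = 5) came from dams cycled between 21% and 21% oxygen, and hypoxia males (n = 5) and hypoxia females (n = 4) from dams cycled between 10.5% and 21%. All litters were born under normoxia and raised in normal housing. Cells were pulled down with beads carrying an antibody to CD11b, which other myeloid cells also bear. The series design names 5 litters per exposure with 1 male and 1 female from each. By that design each male has a female litter mate in the series, although the labels do not tie litters to single libraries. The main comparison over both sexes has no term for litter, so litter mates enter its tests and intervals as if independent. The remaining female hypoxia medulla library, replicate 3, was left out because it held 6061346 reads and 13379 detected genes.

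Microglia are the resident macrophages of the central nervous system. They survey the tissue, clear debris and synapses, and answer infection and injury with cytokines. The medulla holds the circuits that generate breathing, and microglia there can change the excitability of those circuits when activated. Microglia settle in the brain before birth and renew themselves locally, so an exposure of the dam can reach cells that are still present in the adult offspring.

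The deposited counts are listed by Ensembl gene ID, and the files do not pair these IDs with gene names. None of the 32883 IDs matched the reference table at hand, whose 47357 entries carried 0 Ensembl IDs. Marker genes of microglia and of other cell types were therefore not checked, and groups of genes are described by level and direction. In bulk libraries, fewer cells of a type and less RNA per cell cannot be told apart.

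Depth differed by exposure in males. Normoxia males had 20300000 ± 2500000 counts per library (mean and SD, n = 5) and hypoxia males 12300000 ± 1260000, with no overlap (exact permutation test, two-sided, p = 0.00794, adjusted over 3 tests 0.0238). Normoxia females had 13500000 ± 2430000 (n = 5) and hypoxia females 15200000 ± 3200000 (n = 4; exact permutation p = 0.373, adjusted 0.373). Within males, depth and exposure therefore move together. Over both sexes, with exposure permuted within sex, the exact permutation p was 0.0517 (adjusted over the 3 tests 0.0776). To check the region labels, genes were picked in the 30 libraries that are not of hypoxia females. There, 32 genes were higher and 46 lower in every medulla library than in every cord library. These counts are given without the number of genes screened, so they do not measure how far the regions differ. The genes were picked by the labels of those 30 libraries, so the check covers only the libraries of hypoxia females. In hypoxia females the mean log2 CPM of the 32 genes was 4.1 to 5.5 in the 4 medulla libraries and 2.7 to 3.14 in the 5 cord libraries, on the side of their labels.

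Medulla microglia of hypoxia and normoxia offspring overlapped in their overall profiles. On log2 CPM, the first principal component carried 38.9% of the variance. Normoxia libraries spread from -59.7 to 84 on it and hypoxia libraries from -68.5 to 82.1. The difference in mean score was smaller than the spread within either exposure, at 4.08 ± 46 (SD, n = 10) against -4.54 ± 48.9 (n = 9; exact permutation test within sex, two-sided, p = 0.678). The exact permutation p-values of the next components, PC2, PC3 and PC4, were 0.338, 0.885 and 0.618, and all 4 were 0.885 after adjustment over the 4. On the second component, female hypoxia replicates 1 and 4 lay alone at -66.9 and -52.6, while female hypoxia replicate 5 had the highest score of all, 41.2. Exposure accounted for a mean of 5.59% of a gene's variance after sex, where its 1 degree of freedom of 18 is 5.56% of them. The most that exposure took of any gene's variance was 57.5%, against 99.8% for sex.

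**Figure D1:**
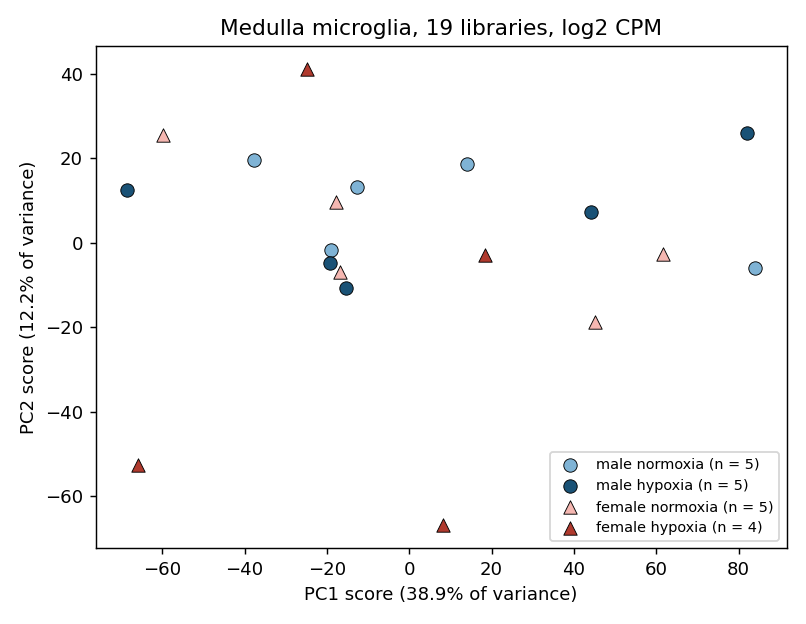
Scores of the 19 medulla libraries on the first (x axis, 38.9% of variance) and second (y axis, 12.2%) principal components of log2 CPM, with 1 point per library, circles for males, triangles for females and the darker shade for hypoxia. Hypoxia and normoxia points intermingle along the first component, and 2 female hypoxia libraries lie lowest on the second, at -66.9 and -52.6.

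No gene passed the threshold between hypoxia and normoxia offspring in the medulla. With edgeR, 0 of 14364 genes were called (0% called), and the lowest adjusted p was 0.912. A further count, at an unadjusted p under 0.05, held 650 genes, 303 higher and 347 lower after hypoxia, which is 4.53% of those tested. That number moved with single libraries. It was 1332 (9.24%) without male hypoxia replicate 5, and ran from 456 (3.1%) to 920 (6.31%) with any other library left out. DESeq2 called 1 gene and limma voom with quality weights called 0, with 729 (5.08%) and 1384 genes (9.64%) at an unadjusted p under 0.05. CPM of the 9 hypoxia and 10 normoxia libraries overlapped in every gene, 0% of 14364 being free of overlap. Counts thinned to the shallowest total again gave 0 calls, with 639 genes (4.58%) at an unadjusted p under 0.05.

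The fitted differences were small for most genes, and the data bound them most tightly where expression was high. The median log2 fold change was -0.01, and 90% of genes lay between -0.44 and 0.33. The 95% interval of the fold change stayed inside 2-fold in either direction for 11675 of 14363 genes with an interval (81.3%) and inside 1.5-fold for 9080 (63.2%). In the 3977 genes whose average log2 CPM lay from 5 to 7, 97.7% were bounded within 2-fold and 91.5% within 1.5-fold, with a median SE of 0.0923. In the 2291 genes under an average log2 CPM of 1, these shares were 32.7% and 2.18%, with a median SE of 0.423. For most genes of such low level, these intervals do not exclude a change of 1.5-fold. Genes of the middle bands lay between, at 34.8% bounded within 1.5-fold from 1 to 3 and 78.1% from 3 to 5.

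**Figure D2:**
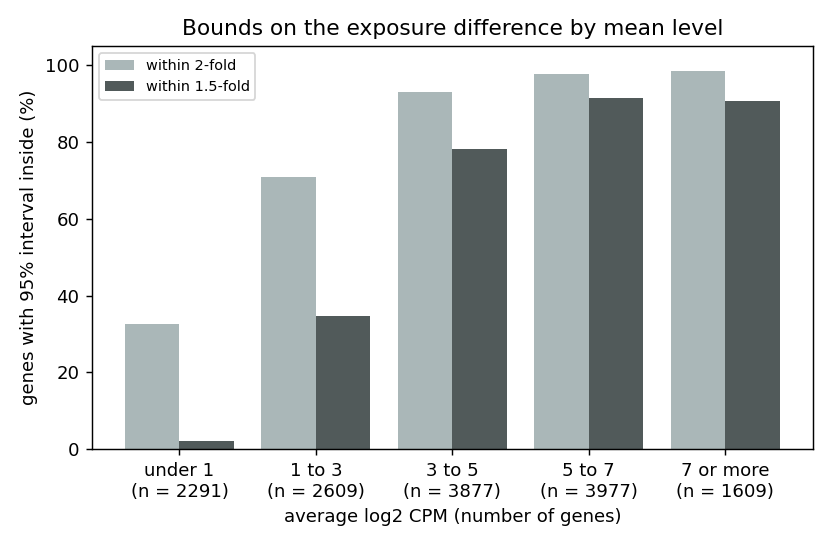
Share of genes (y axis, percent) whose 95% interval of the exposure difference lay inside 2-fold (light bars) or 1.5-fold (dark bars), by band of average log2 CPM (x axis, with the number of genes). The dark bars run from 2.18% in the lowest band to 90.7% in the highest.

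Larger fitted changes belonged to genes that varied widely between animals. In all, 78 genes had a fitted change over 2-fold, 27 higher and 51 lower after hypoxia. Of them, 50 had an average log2 CPM under 1, beside 2291 of all 14364 genes. Of the 78, 25 had an unadjusted p under 0.05, beside 650 of all 14364 genes. The 78 were picked by their fold change in the same comparison, so this count is a description. Their median biological coefficient of variation, the spread of expression between animals beyond counting error, was 1.02, against 0.226 over all genes tested. In 7 of the 78 (8.97%) a single library held over 50% of the summed CPM of all 19, as against 10 of all 14364 genes (0.0696%).

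**Figure D3:**
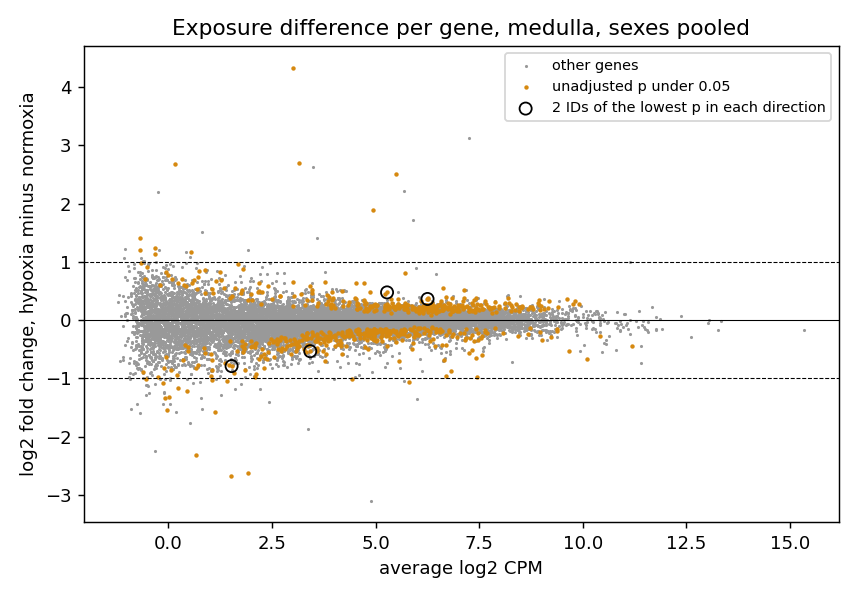
Log2 fold change, hypoxia minus normoxia (y axis), against average log2 CPM (x axis) for the 14364 genes tested in the medulla, with genes at an unadjusted p under 0.05 in orange and the 4 IDs described in the text circled. Dashed lines mark 2-fold, and 78 genes lie beyond them.

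The 4 IDs of the lowest p, 2 in each direction, show what the strongest of these differences looked like in single libraries. They were chosen by their p in this comparison, so their values are a description. ENSRNOG00000025296 held 55.9, 65.4 and 78.1 CPM in normoxia libraries (lowest, median and highest, n = 10) and 68.1, 84.8 and 105 CPM in hypoxia libraries (n = 9). Its hypoxia values were above every normoxia value in 7 of 9 libraries, and the 2 others lay inside the normoxia range. The fitted log2 fold change was 0.37 (SE 0.07, 95% interval 0.21 to 0.52, edgeR adjusted p = 0.912). This was the 1 gene called by DESeq2, with an adjusted p of 0.0412. Means were 65.6 ± 7.98 CPM in normoxia males and 79.3 ± 6.85 in hypoxia males (SD, n = 5 each), and 68.6 ± 8.09 (n = 5) and 94.9 ± 7.9 (n = 4) in females, so the direction was the same in both sexes.

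ENSRNOG00000002609 held 25.9, 29.8 and 42.3 CPM in normoxia libraries and 34.6, 41.2 and 70.4 CPM in hypoxia libraries (lowest, median and highest). All 9 hypoxia libraries lay above the normoxia median, and 4 of them above every normoxia library. The log2 fold change was 0.48 (SE 0.11, 95% interval 0.24 to 0.72, edgeR adjusted p = 0.912), with 0.37 in males and 0.6 in females.

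The other pair was lower after hypoxia. ENSRNOG00000056575 held 7.46, 11.7 and 15.7 CPM in normoxia libraries and 6.44, 9.04 and 10.5 CPM in hypoxia libraries (lowest, median and highest), and its log2 fold change was -0.53 (SE 0.13, 95% interval -0.8 to -0.27, edgeR adjusted p = 0.912). Only 2 of the 9 hypoxia libraries lay below every normoxia library, although all 9 were under the normoxia median. ENSRNOG00000053391, a gene of low level, held 2.71, 3.48 and 4.5 CPM in normoxia libraries and 1.11, 1.99 and 3.28 CPM in hypoxia libraries. Its groups came closest to parting, with 8 of 9 hypoxia libraries below every normoxia library and female hypoxia replicate 1 at 3.28 CPM inside the normoxia range. The log2 fold change was -0.79 (SE 0.19, 95% interval -1.19 to -0.38, edgeR adjusted p = 0.912), with -0.84 in males and -0.72 in females.

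**Figure D4:**
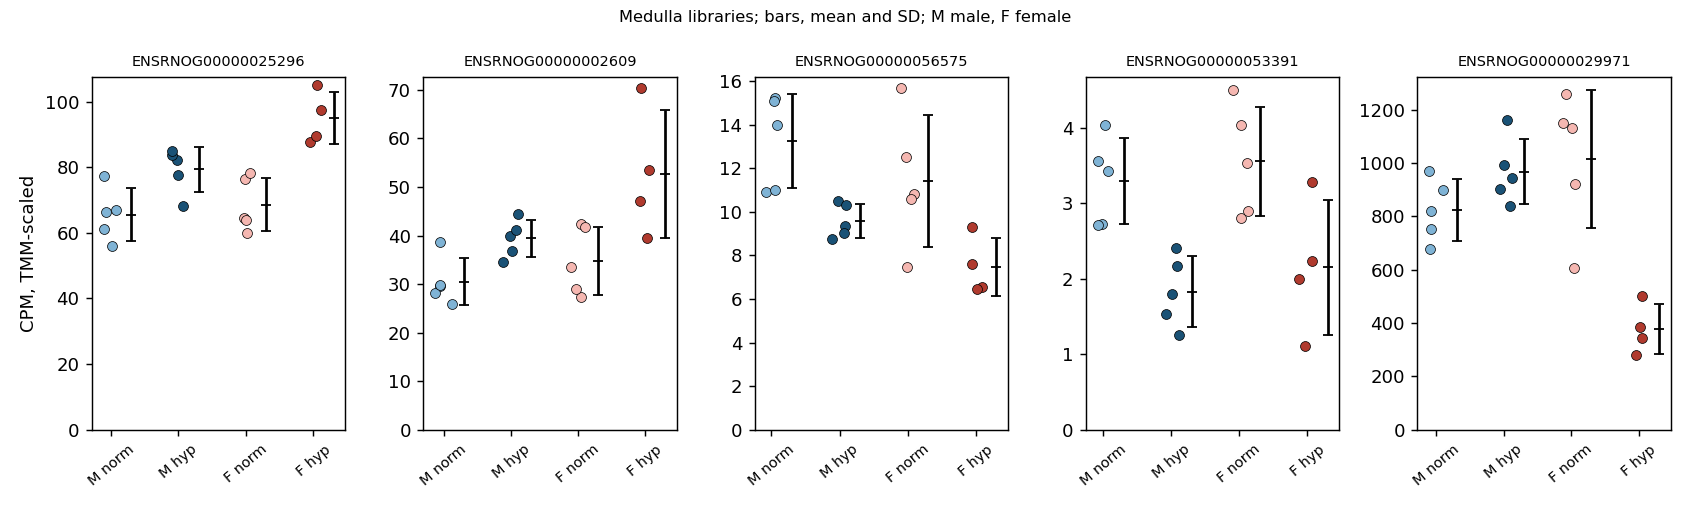
CPM (y axis, from 0, a separate scale per panel) of the 5 IDs described in the text in the 19 medulla libraries by sex and exposure (x axis), with 1 point per library and bars for the mean and SD of each group. The first 4 panels show shifts in the same direction in both sexes with the exposures overlapping when the sexes are pooled, and the last, ENSRNOG00000029971, shows hypoxia females at 280 to 502 CPM below all other groups.

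The same 4 IDs were read in the cord of these animals. Unless a sex is named, the medulla values beside them are those of the pooled comparison, with sex as a covariate. In cord libraries with the sexes averaged, the log2 fold change was 0.01 (SE 0.07, edgeR adjusted p = 0.957) for ENSRNOG00000025296, beside 0.37 (SE 0.07) in the medulla. Of the 4, ENSRNOG00000025296 alone was among the genes called in the test of the regions described below. Since the IDs were chosen by their medulla values, that call is not separate support for a difference between the regions. For ENSRNOG00000002609 the log2 fold change was 0.39 in the cord (SE 0.12, edgeR adjusted p = 0.0461), beside 0.48 in the medulla. In that cord comparison 8.28% of 13593 genes were called. In the female cord it was 0.22 (SE 0.17, edgeR adjusted p = 0.318), beside 0.6 in the female medulla. Mean CPM in the cord was 30.3 in normoxia and 44.3 in hypoxia males, and 38.3 and 44.7 in females. ENSRNOG00000053391 was at -0.72 in the cord (SE 0.29, edgeR adjusted p = 0.116) and -0.79 in the medulla, and ENSRNOG00000056575 at -0.11 (SE 0.13, edgeR adjusted p = 0.671) and -0.53. Both regions came from the same animals, so the cord is not an independent repeat of the medulla.

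By sex, 1 gene was called in females and 0 in males. In males 0 of 14364 genes were called (0% called) and 327 had an unadjusted p under 0.05 (2.28%), 114 higher and 213 lower after hypoxia. DESeq2 and limma voom also called 0 in males, with 381 (2.65%) and 1465 genes (10.2%) at an unadjusted p under 0.05. In females 1 gene was called (0.00696%), and 1194 had an unadjusted p under 0.05 (8.31%), 654 higher and 540 lower. The second number became 2034 (14%) without female hypoxia replicate 5, 795 (5.42%) without female hypoxia replicate 1 and 2180 (15.4%) with female hypoxia replicate 3. DESeq2 called 38 genes in females and limma voom 1, with 1336 (9.3%) and 780 (5.43%) at an unadjusted p under 0.05. By limma voom that share was thus larger in males, at 10.2%, than in females. CPM of hypoxia and normoxia libraries did not overlap in 334 genes in females (2.33%), 213 of them higher after hypoxia, and in 106 genes in males (0.738%), 33 of them higher. Groups of 4 and 5 part by rank more readily than groups of 5 and 5. A difference between these counts does not show that the sexes responded differently, and the test of that difference called 0 genes (0% called), with 753 at an unadjusted p under 0.05 (5.24%). DESeq2 called 6 and limma voom 1 in that test.

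The gene called in females was ENSRNOG00000029971, which fell after hypoxia. Normoxia female libraries held 1260, 1130, 921, 1150 and 607 CPM, and hypoxia female libraries 280, 386, 342 and 502 CPM. All 4 hypoxia females were thus below all 5 normoxia females, and female normoxia replicate 5 at 607 CPM came nearest to them. The log2 fold change was -1.42 (SE 0.2, 95% interval -1.84 to -1.01, edgeR adjusted p = 0.0145). In males the gene held 676 to 969 CPM in normoxia and 840 to 1160 CPM in hypoxia libraries, with a log2 fold change of 0.23 (SE 0.18, edgeR adjusted p = 1). The difference between the sexes in this response was -1.66 on the log2 scale (SE 0.26, edgeR adjusted p = 0.0944) and was not called. In the pooled comparison the same gene had a log2 fold change of -0.53 (SE 0.24, edgeR adjusted p = 0.912), a mean over opposite signs.

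The female call rested on several single libraries. The edgeR adjusted p was 0.0685 and 0.0594 without female normoxia replicates 1 and 4, and 0.135, 0.127 and 0.141 without female hypoxia replicates 1, 2 and 4, while the log2 fold change stayed between -1.59 and -1.32 over all 19 fits that left 1 library out. The female hypoxia replicates 1 and 4 are the libraries that lay alone on the second principal component. They held the lowest values of this gene, 280 and 342 CPM, and the part of what sets them apart in this result was not tested. With female hypoxia replicate 3 included, the log2 fold change was -1.28 and the edgeR adjusted p 0.0752. With only the 9 female libraries setting the spread, the adjusted p was 0.728, and with 39 libraries of both regions it was 0.268. Without female normoxia replicate 2, ENSRNOG00000019741 was called as well, an ID named here after its values were seen. ENSRNOG00000029971 was the 1 gene called in the difference between the sexes without female normoxia replicate 5, without female hypoxia replicate 5, and with limma voom.

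The cord gave ENSRNOG00000029971 the opposite direction in females. Cord libraries of normoxia females averaged 396 ± 59.7 CPM (SD, n = 5) and those of hypoxia females 852 ± 99.2 CPM (n = 5), with ranges of 330 to 476 and 770 to 1000. The female cord log2 fold change was 1.11 (SE 0.34, edgeR adjusted p = 0.0164), in a comparison where 32.8% of genes were called. Averaged over the sexes, the log2 fold change was 0.92 in the cord libraries (SE 0.24, edgeR adjusted p = 0.0257). In the fit of 39 libraries used for the test of the regions, this average was 0.912 in the cord and -0.594 in the medulla. The gene was among those called in the test of the regions described below. It was chosen by its medulla values, so that call is not separate support for a difference between the regions. Hypoxia females were the single group whose medulla held less of this transcript than its cord, at 378 ± 93.6 CPM (n = 4) in the medulla.

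Whether the exposure difference in the medulla differed from that in the cord was tested over 39 libraries, as the medulla response minus the cord response averaged over the sexes. Of 15047 genes, 608 were called (4.04%), 288 where the medulla response was the more positive and 320 where it was the more negative, and 3273 had an unadjusted p under 0.05 (21.8%). With each animal as a block, which pairs its regions, 1179 of the 15047 genes were called, 456 more positive and 723 more negative. Of the 608, 548 were among them. The contrast in males alone called 0 genes, with 438 at an unadjusted p under 0.05 (2.91%). That in females alone called 3256 of the 15047 genes, with 5149 at an unadjusted p under 0.05 (34.2%). These counts do not show that the region difference itself differed between the sexes, which was not tested. For the mean over the sexes, DESeq2 called 1140 and limma voom 1019.

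Fitted responses of the called genes were largest in the female cord. For the 288 genes, the median log2 fold change after hypoxia was 0.15 and 0.22 in the medulla of males and females, against -0.01 in the male cord and -0.63 in the female cord. For the 320 genes these medians were -0.16, -0.28, 0.02 and 0.82. Over all 15047 genes all 4 medians were -0.01. The cord response was the larger of the 2 in 257 of the 288 genes (89.2%) and in 303 of the 320 (94.7%), as against 65.2% of all genes. The fitted medulla response went over 1.5-fold in 4 of the 288 and 9 of the 320, beside 821 of all 15047 genes. The fitted cord response did so in 28 of the 288 and 65 of the 320, beside 1936 of all genes. These genes were chosen by the difference between the regions, so their medians are descriptions. Among the 320, ENSRNOG00000029971 was not alone in a fitted fall over 2-fold in the female medulla beside a rise in the female cord. Several other IDs had this pattern, some with larger falls. ENSRNOG00000031033 had log2 fold changes of -1.505 and 2.041 there, and ENSRNOG00000027694 of -1.941 and 4.087. ENSRNOG00000031766 was at -1.281 and 1.203, and ENSRNOG00000029042 at -1.319 and 0.978. These IDs are examples and not the full set, and they are named here after their values were seen.

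**Figure D5:**
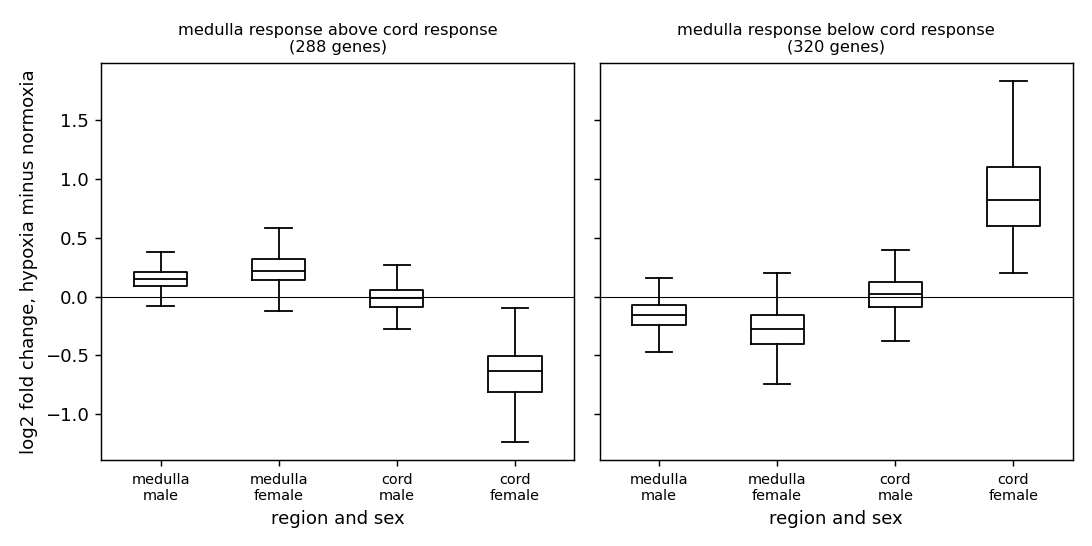
Log2 fold change, hypoxia minus normoxia (y axis), in each region and sex (x axis) for the genes called in the region test, with the median, quartiles and whiskers to 1.5 times the quartile range, outlying genes not drawn. Boxes of the medulla lie near 0 with medians of 0.15 and 0.22 on the left and -0.16 and -0.28 on the right, while the female cord lies at -0.63 and 0.82.

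Single libraries moved the number called in the region test. The number was 167 and 195 without female hypoxia medulla replicates 4 and 1, the libraries alone on the second principal component at -52.6 and -66.9. In them the most abundant gene took 1.96% and 2.59% of the counts, against 2.85% to 5.93% in the other 17 medulla libraries, and the part of these traits in the region result was not tested. The count lay between 304 and 405 without male normoxia medulla replicates 1, 3 or 4, male hypoxia medulla replicates 1, 2 or 3, or female normoxia medulla replicates 2, 3 or 4. It lay between 312 and 376 without male normoxia cord replicates 3 or 5, male hypoxia cord replicate 3, female normoxia cord replicate 5, or female hypoxia cord replicates 2 or 3. It rose to 1212, 1077, 1053 and 1443 without male hypoxia medulla replicate 5, female normoxia medulla replicate 5, and female hypoxia medulla replicates 2 and 5. With female hypoxia medulla replicate 3 included it was 208.

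Genes that changed in the female cord leaned the other way in the medulla, by small amounts. In the female cord, 2468 genes were called higher and 1990 lower after hypoxia. Of the 2457 higher genes tested in the medulla, 15% had a positive pooled fold change, with a median log2 value of -0.12, where 46.3% of all 14364 genes were positive with a median of -0.01. Of the 1962 lower genes tested, 83.9% were positive, with a median of 0.11. The male medulla shares no animal with the female cord, but by the series design males and females of an exposure come from the same litters. There, 23.4% of the higher genes and 80% of the lower genes were positive, with medians of -0.09 and 0.09, against 47.2% of all genes. In the female medulla the shares were 24.6% and 73.8%, with medians of -0.15 and 0.11. Of these cord genes, 0 were called in the pooled or the male medulla and 1, ENSRNOG00000029971, in the female medulla. Genes of a library vary together, so these shares are not counts of independent events.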

How the data were processed

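The authors deposited raw read counts per Ensembl rat gene ID, as whole numbers. The submitters' processing notes name TopHat2 2.1, HTSeq, edgeR and build rn6, without roles. The annotation release and strand setting were not given in the sources used here. How reads that fall in an overlapping gene, an antisense gene or a close copy were counted is therefore not known. Between libraries of 1 medulla group, 0 pairs were identical, with chi-square values of at least 10.9 for each degree of freedom.

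The tests were quasi-likelihood F tests (edgeR 4.0.16, R 4.3.3) with TMM factors, after filterByExpr by group at a minimum count of 10. A gene was called at a Benjamini-Hochberg adjusted p under 0.05. Standard errors were derived from the F statistic, and 95% intervals are per gene. CPM are counts scaled to a common TMM-adjusted total (cord values from the fit of 39 libraries), and log2 CPM for the principal components used a prior count of 2. The test was checked on simulated data.

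The 0 of 32883 IDs that could be paired with a symbol left all 34 lists of pathway genes and cell type markers without values. The rule for named genes took called genes with a symbol by fold change. With none called in the pooled comparison, 2 IDs per direction of the lowest p at an average log2 CPM of at least 1 were taken. The ID called in females was named after its values were seen. Members and lists were chosen with earlier results of these data known.

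Replicate numbers were not taken as pairs within the medulla. Deviations from group means of same-numbered libraries correlated at -0.42 to 0.4 between exposures and at -0.41 to 0.74 between sexes. The series design ties the 2 regions to 1 animal, and their deviations correlated at 0.06 to 0.42 over 19 animals. The region test reported (608 calls), its medians and its single-library counts come from a fit without a block by animal, and the fit with that block was the alternative (1179 calls). DESeq2 1.42.0, limma 3.58.1, RLE factors, no filter, thinned counts, blocks, other sets of libraries and leaving out each library were the alternatives, and leaving out cord libraries and single-sex region contrasts were added after seeing the data.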

Additional observations from a re-analysis of the deposited data

Results flagged for a closer look

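A difference between groups was found in the test of the medulla response against the cord response, where 608 genes were called. Male hypoxia medulla replicate 5 lay apart from the other 4 libraries of its group on the fourth principal component, with a score of -11.5 against 10 to 18.6. It was the 1 library set apart in 48 sets of values examined, and chance sets apart about 1 in 20.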

How the results depend on the processing

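The pooled comparison called 0 genes under every alternative run except DESeq2, which called 1, and leaving out each library in turn gave 0 to 0. The male comparison called 0 in all. In females, the count of 1 became 38 with DESeq2 and 0 with female hypoxia replicate 3, with the replicate block, with 39 libraries sharing the spread and with only the female libraries, and it ran from 0 to 2 with single libraries out. The sex difference in the response gave 6 genes with DESeq2, 1 with limma voom and 0 to 1 with single libraries out. The region difference gave 332 genes without the filter, 1140 with DESeq2, 1019 with limma voom, 208 with female hypoxia replicate 3, 1179 with the animal as the replicate block, 0 in males and 3256 in females, and 167 to 1443 with single libraries out. The replicate block changed no other count of calls, and 5 of 19 medulla libraries correlated best with a library of their own number. Of 144 values of the 5 IDs under alternatives, 0 reversed, 9 lost the call and 1 gained it. Marker levels as covariates were not run, since no symbols were available. Low counts limit the bounds on genes under an average log2 CPM of 1.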
